A study of Mus musculus with 16 samples.

Results

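The collagen genes were followed in RNA from primary hippocampal cultures of newborn C57Bl/6N mice. They were taken as every protein-coding gene whose mouse symbol is Col, a number, the letter a and a number, which gave 44 genes of the 55385 in each deposited table. The cultures held neurons and glia, and all of them had been infected on day in vitro 4 with a recombinant adeno-associated virus (rAAV) carrying a short hairpin RNA (shRNA) and GFP. The hairpin was either Control-shRNA or Dnmt3a1-shRNA, which targets the long isoform of the DNA methyltransferase Dnmt3a. On days in vitro 9 to 11 the cultures were left at baseline or received 50 µM bicuculline for 4 h. Bicuculline blocks GABA-A receptors and sets off bursts of action potentials in such cultures. The 2 hairpins and the 2 conditions made 4 groups with 4 libraries each, 16 in all. The U6 promoter that drives the hairpin does not restrict it to 1 cell type, the GFP stands under a chicken beta-actin promoter, and 1 knockdown hairpin was sequenced. For delivery of the hairpins in mice, the study chose the rAAV serotype for its known tropism for neurons. Which cell types took up the virus in these cultures was not tested here. The replicate numbers 1 to 4 recur in every group. Per the study the replicates of a condition came from separate neuronal preparations, and whether equal numbers in different groups mark a shared preparation is not stated in the sources used here. Because these are bulk libraries, fewer cells of a type and less RNA per cell cannot be told apart.

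Collagens are secreted or membrane-anchored proteins built from 3 chains wound into a triple helix, and they fall into classes by how the helices assemble. Fibrillar collagens form the ropes of skin and bone, type IV collagens the sheet of basement membranes, type VI collagens beaded filaments, and the FACIT collagens (fibril-associated collagens with interrupted triple helices) coat fibrils. Multiplexins sit in basement membrane zones, short-chain collagens form open networks as in cartilage, and membrane-spanning collagens stay on the cell surface, where they can be shed. In brain tissue, meningeal and perivascular fibroblasts make most of the fibrillar collagen, vascular cells and astrocytes make type IV, and some neurons make Col25a1, Col19a1 and Col23a1.

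Each library held between 28912697 and 29586355 estimated counts. Mitochondrial genes took 2.73% to 6.60% of them. Dnmt3a fell from 312.4 CPM (counts scaled to library size) in Control-shRNA to 44.5 CPM in Dnmt3a1-shRNA at baseline (log2 fold change -2.81, adjusted p = 8.86e-15 by the quasi-likelihood test of edgeR, adjusted by Benjamini and Hochberg's method) and from 326.7 to 45.3 CPM with bicuculline (-2.85, adjusted p = 7.43e-15). The activity-regulated genes Arc, Fos and Npas4 rose with bicuculline by 5.64, 6.40 and 7.32 on the log2 scale in Control-shRNA and by 6.08, 6.19 and 6.63 in Dnmt3a1-shRNA. Summed TPM (transcript abundance scaled by length and library) of 6 neuronal markers lay between 4276 and 5594 in the 16 libraries. All 12 fibroblast markers were detected, with sums of 43.3 to 89.0 TPM, while 6 endothelial markers summed to 0.934 to 2.48 TPM and 6 microglial markers to 2.35 to 8.24 TPM.

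Of the 44 collagens, 40 passed the filter on low counts, which kept 17222 genes in all. Col9a2 (at most 11 estimated counts in a library), Col4a3 (at most 14), Col8a2 (at most 7) and Col24a1 (at most 4) did not and were left untested. A collagen was called where the adjusted p was under 0.05 and the absolute log2 fold change over 0.5, in 1 edgeR fit of all 16 libraries with p-values adjusted over the 17222 genes. By that rule 13 collagens were called in at least 1 of the 4 comparisons and 27 tested collagens in none. The share of all genes called in at least 1 comparison was not counted, so the 13 have no share beside them. Shares for each comparison are given below. This fit did not pair libraries by replicate number, and a fit that did, given below, called more. Fold changes are given on the log2 scale with their standard error (SE), and levels as mean ± SD over n = 4 libraries.

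The largest rise and the largest fall among the called collagens were those of Col10a1 and Col15a1, both with bicuculline. The 250 bases before the start of each gene in RefSeq (GRCm38.p6) are shown because these 2 genes carry the widest changes, with the letters TATAAA in capitals where they occur on either strand. The Col10a1 window lies at chr10:34389731-34389980 on the plus strand and the Col15a1 window at chr4:47207762-47208011, also on the plus strand.
Col10a1: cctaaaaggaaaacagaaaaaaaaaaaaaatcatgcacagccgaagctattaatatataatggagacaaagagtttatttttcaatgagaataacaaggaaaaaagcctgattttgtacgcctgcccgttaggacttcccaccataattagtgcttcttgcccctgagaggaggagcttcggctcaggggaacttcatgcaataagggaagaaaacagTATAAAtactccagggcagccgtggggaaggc
Col15a1: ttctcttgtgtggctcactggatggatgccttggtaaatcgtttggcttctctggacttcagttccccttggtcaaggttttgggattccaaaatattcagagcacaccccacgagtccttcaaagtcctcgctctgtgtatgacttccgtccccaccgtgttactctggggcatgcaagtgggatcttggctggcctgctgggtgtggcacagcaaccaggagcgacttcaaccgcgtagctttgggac
The Col10a1 window held TATAAA 32 bases before the start, 41.6% G and C, and 5 CpG pairs, which hold cytosines that DNA methyltransferases can modify. Cytosines outside CpG pairs were not counted. The Col15a1 window held 8 CpG pairs and 53.6% G and C, and none of the 3 motifs searched. Of all 32851 promoter windows of that length in the table, 49.6% had at most 5 and 59.7% at most 8 CpG pairs. A promoter was in the table for 35 of the 44 collagens, in 38 windows with a median of 9.5 CpG pairs and 59.0% G and C, against 6 pairs and 52.4% over all windows. The other 9 were Col12a1, Col14a1, Col1a1, Col22a1, Col26a1, Col2a1, Col4a3, Col5a2 and Col9a3. TATAAA was found in 5 of the 35 collagens (Col10a1, Col11a2, Col13a1, Col17a1 and Col3a1), or 14.3%, and in 12.4% of all windows. The AP-1 letters TGANTCA, searched on both strands, were found for Col6a1 alone, or 2.86% of the 35, against 6.75% of all windows. The CRE letters TGACGTCA, the site of cAMP-responsive factors, were in none of the 35 and in 1.55% of all windows. For the 3 motifs the collagen shares count genes, where any window of a gene is enough. The shares over all windows count windows, so the units differ.

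Levels differed widely among the collagens. Averaged over the 16 libraries, Col26a1 was the highest at 32.4 TPM, which is a level per transcript length, and gave 18.03% of the summed collagen TPM of 179.9. Col4a1 and Col4a2, the main chains of basement membrane collagen, followed at 18.98 and 16.7 TPM. Col25a1 stood at 15.04 TPM and Col18a1, a multiplexin whose end fragment is endostatin, at 14.4 TPM. These 5 genes made up 54.2% of the sum. The next were Col3a1 (10.5 TPM), Col12a1 (6.45 TPM) and Col6a1 (5.99 TPM). A mean of at least 1 TPM was reached by 26 collagens and of at least 5 TPM by 10. By class, type IV held 21.6% of the collagen TPM, the fibrillar collagens 16.5%, the FACITs 13.5%, the membrane-spanning collagens 10.9%, the multiplexins 9.87%, type VI with types VII and XXVIII 6.27%, and the short-chain collagens 3.28%.

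**Figure D1:**
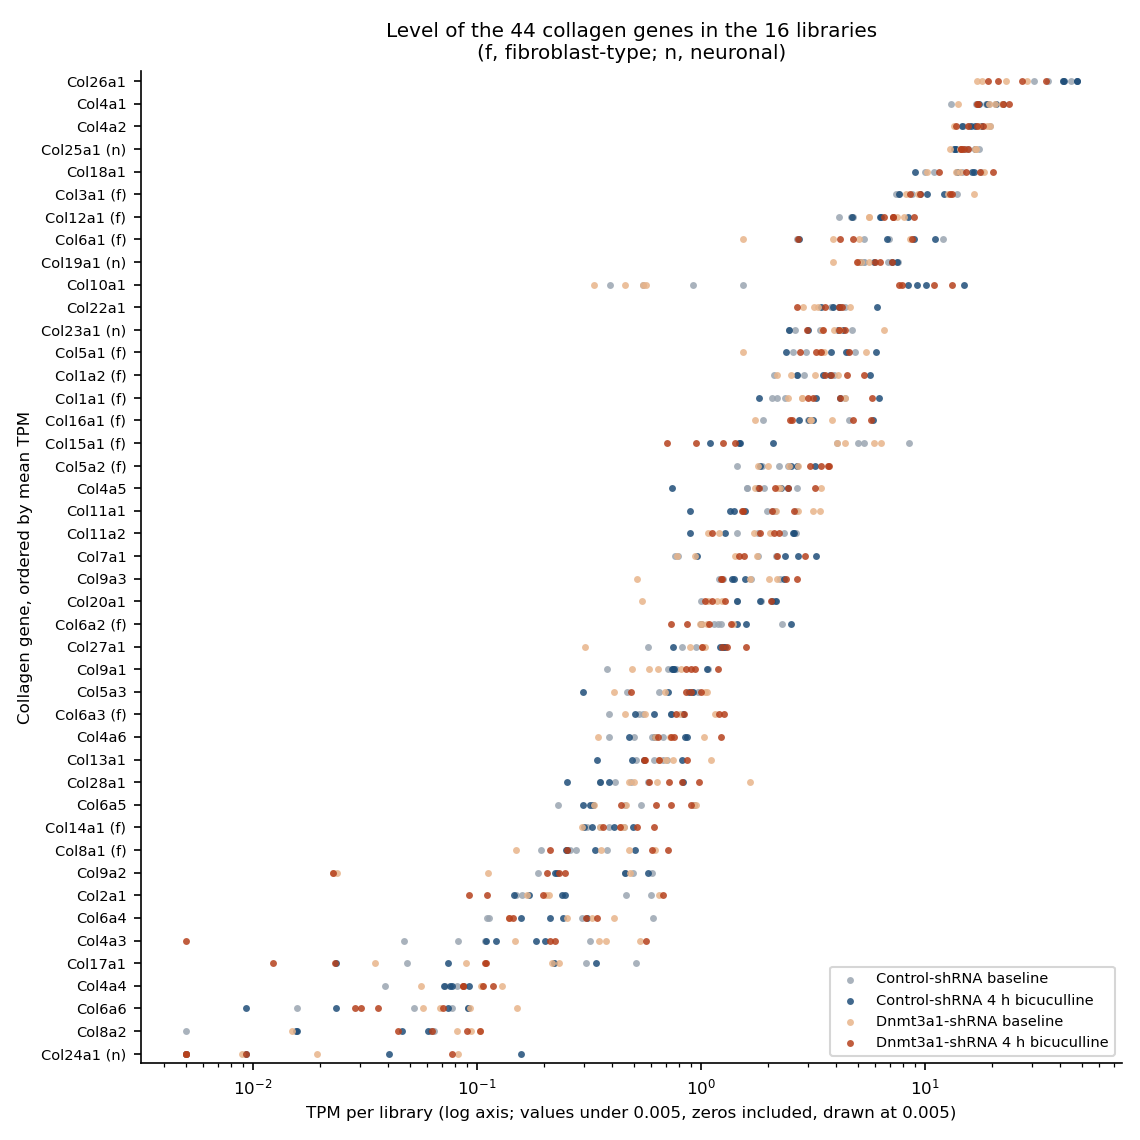
TPM of the 44 collagens (rows, ordered by mean) in each of the 16 libraries on a log axis, coloured by group, with values under 0.005 TPM drawn at 0.005 and (f) and (n) marking fibroblast-type and neuronal collagens. Col26a1 stands highest with a mean of 32.4 TPM, and the points of Col10a1 separate by bicuculline.

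Among the abundant collagens, the type IV pair ranked next after Col26a1. Col4a1 stood at 46.2, 45.6, 48.8 and 39.2 CPM in the Control-shRNA baseline libraries and at 54.05, 53.3, 58.9 and 58.2 CPM with bicuculline, against 48.7, 52.3, 57.1 and 57.6 CPM and 63.4, 61.3, 66.5 and 69.8 CPM in the Dnmt3a1-shRNA libraries. All 4 bicuculline libraries lay above all 4 baseline libraries in each shRNA. The log2 fold changes of Col4a1 were 0.32 ± 0.074 (adjusted p = 0.00193) with bicuculline in Control-shRNA, 0.27 ± 0.074 (adjusted p = 0.00509) with bicuculline in Dnmt3a1-shRNA, 0.26 ± 0.074 (adjusted p = 0.0208) for Dnmt3a1-shRNA at baseline and 0.22 ± 0.074 (adjusted p = 0.0497) for Dnmt3a1-shRNA with bicuculline, all under the fold threshold. Col4a2 stood at 49.9, 51.95, 54.2 and 44.98 CPM in the Control-shRNA baseline libraries and at 58.96, 50.7, 54.3 and 61.3 CPM with bicuculline, against 47.9, 58.1, 55.9 and 61.6 CPM and 55.2, 58.9, 61.4 and 63.8 CPM in the Dnmt3a1-shRNA libraries. The groups overlapped in every comparison for Col4a2. It overlaps Col4a1 on the opposite strand over a short stretch at their starts, from base 11312805 to base 11312826 of chromosome 8. Per the study the reads were longer than that stretch, and whether any were counted for the wrong gene was not checked. Col4a2 gave 0.16 ± 0.083 (adjusted p = 0.128) with bicuculline in Control-shRNA, 0.099 ± 0.083 (adjusted p = 0.360) with bicuculline in Dnmt3a1-shRNA, 0.15 ± 0.083 (adjusted p = 0.237) for Dnmt3a1-shRNA at baseline and 0.088 ± 0.083 (adjusted p = 0.511) for Dnmt3a1-shRNA with bicuculline.

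Col18a1 spread more between libraries. Col18a1 stood at 23.3, 32.4, 37.1 and 26.1 CPM in the Control-shRNA baseline libraries and at 26.3, 43.7, 42.7 and 35.4 CPM with bicuculline, against 25.1, 34.9, 42.2 and 34.4 CPM and 35.2, 44.1, 54.1 and 49.1 CPM in the Dnmt3a1-shRNA libraries. Replicate 1 was the lowest library in each group, the groups overlapped, and no comparison of Col18a1 passed the test. Its log2 fold changes were 0.32 ± 0.18 (adjusted p = 0.186) with bicuculline in Control-shRNA, 0.42 ± 0.18 (adjusted p = 0.0707) with bicuculline in Dnmt3a1-shRNA, 0.20 ± 0.18 (adjusted p = 0.522) for Dnmt3a1-shRNA at baseline and 0.30 ± 0.18 (adjusted p = 0.279) for Dnmt3a1-shRNA with bicuculline. Col3a1, the chain of type III fibrils in soft tissue and vessel walls, had a comparable spread. Col3a1 stood at 16.4, 17.8, 26.8 and 18.5 CPM in the Control-shRNA baseline libraries and at 20.7, 23.1, 30.1 and 23.9 CPM with bicuculline, against 20.2, 20.4, 30.8 and 26.9 CPM and 27.6, 22.9, 35.6 and 33.9 CPM in the Dnmt3a1-shRNA libraries. Its replicate 3 was the highest in each group. Col12a1 stood at 15.6, 10.2, 12.5 and 12.3 CPM in the Control-shRNA baseline libraries and at 15.4, 11.01, 13.4 and 12.6 CPM with bicuculline, against 17.5, 12.3, 12.4 and 16.2 CPM and 21.7, 16.3, 15.7 and 17.6 CPM in the Dnmt3a1-shRNA libraries. This FACIT of tendon and fascia was highest in replicate 1 in each group. Col6a1 stood at 5.36, 12.8, 21.1 and 10.2 CPM in the Control-shRNA baseline libraries and at 6.37, 19.3, 22.8 and 14.6 CPM with bicuculline, against 3.41, 10.6, 15.8 and 7.88 CPM and 6.81, 11.3, 18.8 and 9.67 CPM in the Dnmt3a1-shRNA libraries. The beaded-filament chain Col6a1 was lowest in replicate 1 and highest in replicate 3 in each group, and its range within each group was wider than the differences between group means. Between same-numbered libraries it rose with bicuculline in every pair and fell with the knockdown in every pair except bicuculline replicate 1.

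Bicuculline was compared with baseline in each shRNA to ask which collagens respond to neuronal activity. In Control-shRNA 6 collagens rose, led by Col10a1, and 1 fell, Col15a1. The others that rose were the FACIT Col20a1, the type VI chain Col6a5, Col7a1, the protein of anchoring fibrils, and the fibrillar chains Col5a2 and Col1a2. The 6 are 15.0% of the 40 tested, beside 10.8% of all tested genes called higher, and the 1 lower is 2.5%, beside 11.1% of all genes. In Dnmt3a1-shRNA 9 rose, or 22.5% beside 12.6% of all genes, and 1 fell, or 2.5% beside 13.2%. The 9 were the 6 above with Col9a1, a cartilage FACIT, the type VI chain Col6a3, and Col28a1, a collagen known from peripheral nerve. Col15a1 was again the one that fell. The median log2 fold change over the 40 collagens was 0.31 in Control-shRNA and 0.31 in Dnmt3a1-shRNA, with 34 of 40 above 0 in each, against medians of 0.01 and -0.01 over all tested genes.

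The counts depended on the scale. With library sizes in place of TMM scaling the median over all genes moved to -0.15 in Control-shRNA and -0.16 in Dnmt3a1-shRNA, the share of lower calls among all calls went from 50.8% to 69.0% and from 51.1% to 67.2%, and 3 collagens rose and 1 fell in each shRNA. Calls over all tested genes went from 3765 to 4397 in Control-shRNA and from 4436 to 5107 in Dnmt3a1-shRNA. The collagens' median lay above that of all genes by 0.31 in Control-shRNA under either scaling, and in Dnmt3a1-shRNA by 0.32 with TMM and 0.31 with library sizes.

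**Figure D2:**
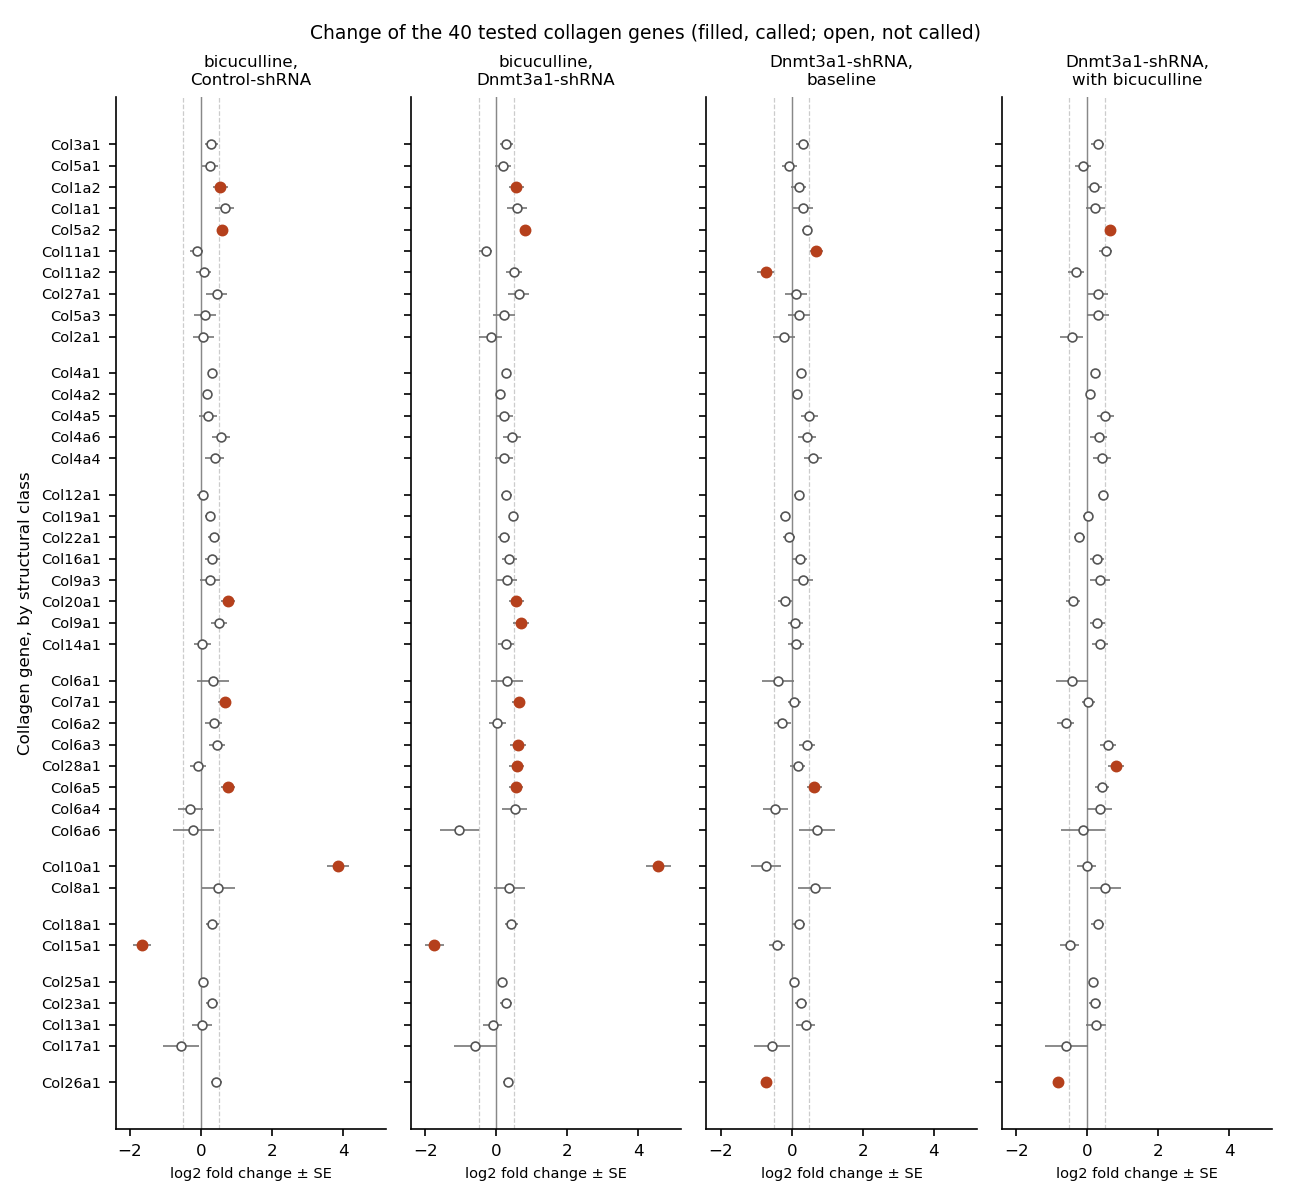
Log2 fold change ± SE of the 40 tested collagens, ordered by class, in the 4 comparisons, with filled points for called genes and dashed lines at the fold threshold of 0.5. Col10a1 reaches 3.86 and 4.56 with bicuculline, Col15a1 lies near -1.7 in the same comparisons, and most other collagens lie between -1 and 1.

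Col10a1 (ENSMUSG00000039462.4, chr10:34389981-34397085 on the plus strand) encodes the network collagen of hypertrophic cartilage. Col10a1 stood at 1.38, 0.772, 0.517 and 2.21 CPM in the Control-shRNA baseline libraries and at 26.2, 14.98, 15.7 and 13.5 CPM with bicuculline, against 0.949, 0.523, 0.635 and 0.842 CPM and 20.8, 13.6, 21.4 and 13.8 CPM in the Dnmt3a1-shRNA libraries. Every bicuculline library lay far above every baseline library. In Control-shRNA the mean went from 1.22 ± 0.751 to 17.6 ± 5.83 CPM, a log2 fold change of 3.86 ± 0.32 (SE, adjusted p = 4.24e-08), or 14.5-fold. In Dnmt3a1-shRNA it went from 0.737 ± 0.193 to 17.4 ± 4.28 CPM, a log2 fold change of 4.56 ± 0.35 (SE, adjusted p = 1.03e-08), or 23.6-fold. The gene Nt5dc1 overlaps Col10a1 on the opposite strand, and whether the counting used strand is not stated in the sources used here. Nt5dc1 stood at 0.306 CPM at baseline and 0.408 CPM with bicuculline in Control-shRNA (adjusted p = 0.365), and at 0.350 and 0.344 CPM in Dnmt3a1-shRNA (adjusted p = 0.967). The other tested short-chain collagen, Col8a1, a component of vessel-associated networks, gave 0.49 ± 0.47 (adjusted p = 0.432) with bicuculline in Control-shRNA, 0.36 ± 0.43 (adjusted p = 0.530) with bicuculline in Dnmt3a1-shRNA, 0.64 ± 0.46 (adjusted p = 0.388) for Dnmt3a1-shRNA at baseline and 0.51 ± 0.44 (adjusted p = 0.465) for Dnmt3a1-shRNA with bicuculline.

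Col15a1 (ENSMUSG00000028339.17, chr4:47208161-47313167 on the plus strand) is a multiplexin of basement membrane zones. Col15a1 stood at 7.01, 13.2, 8.97 and 5.74 CPM in the Control-shRNA baseline libraries and at 1.97, 2.59, 3.67 and 2.81 CPM with bicuculline, against 5.13, 8.89, 5.40 and 6.80 CPM and 1.504, 2.37, 2.07 and 1.88 CPM in the Dnmt3a1-shRNA libraries. All bicuculline libraries lay below all baseline libraries of the same shRNA. The mean fell from 8.74 ± 3.28 to 2.76 ± 0.703 CPM in Control-shRNA, a log2 fold change of -1.66 ± 0.25 (SE, adjusted p = 3.86e-05). It fell from 6.56 ± 1.72 to 1.96 ± 0.362 CPM in Dnmt3a1-shRNA, a log2 fold change of -1.74 ± 0.26 (SE, adjusted p = 3.12e-05). The span of the antisense gene Gm12426 overlaps that of Col15a1, and whether the 2 share exons was not checked. The second multiplexin, Col18a1, did not pass the test, as given above.

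The fibrillar chains Col5a2 and Col1a2 rose in both shRNAs. Col5a2 stood at 4.90, 4.45, 7.09 and 5.80 CPM in the Control-shRNA baseline libraries and at 6.92, 8.80, 8.75 and 9.37 CPM with bicuculline, against 6.47, 6.80, 7.46 and 8.99 CPM and 12.6, 13.9, 12.1 and 13.99 CPM in the Dnmt3a1-shRNA libraries. In Dnmt3a1-shRNA the groups did not overlap for Col5a2, a chain that sets fibril width, and in Control-shRNA baseline replicate 3 lay above bicuculline replicate 1. Its log2 fold changes were 0.61 ± 0.14 (SE, adjusted p = 0.00211) and 0.82 ± 0.14 (SE, adjusted p = 8.62e-05). Col1a2 stood at 5.003, 6.58, 8.73 and 6.19 CPM in the Control-shRNA baseline libraries and at 6.85, 9.48, 13.9 and 8.52 CPM with bicuculline, against 6.04, 6.74, 9.56 and 7.95 CPM and 9.46, 9.55, 13.8 and 11.8 CPM in the Dnmt3a1-shRNA libraries. The groups overlapped in both shRNAs for Col1a2, a chain of type I collagen, with replicate 3 the highest in every group. Its log2 fold changes were 0.55 ± 0.21 (SE, adjusted p = 0.0450) and 0.56 ± 0.21 (SE, adjusted p = 0.0364), close to both thresholds. The Col1a2 call was lost on leaving out any 1 of 10 of the 16 libraries in Control-shRNA (adjusted p = 0.0507 to 0.222) and any 1 of 5 in Dnmt3a1-shRNA (adjusted p = 0.0576 to 0.129).

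Among the type VI and related chains, Col7a1 and Col6a5 rose in both shRNAs. Col7a1 stood at 2.24, 1.79, 2.86 and 2.17 CPM in the Control-shRNA baseline libraries and at 3.76, 2.59, 3.98 and 4.14 CPM with bicuculline, against 1.83, 2.16, 2.76 and 2.79 CPM and 3.21, 3.44, 4.56 and 3.58 CPM in the Dnmt3a1-shRNA libraries. In Dnmt3a1-shRNA all bicuculline libraries of Col7a1 lay above baseline, and its log2 fold changes were 0.67 ± 0.19 (SE, adjusted p = 0.00751) and 0.63 ± 0.19 (SE, adjusted p = 0.0101). Col6a5 stood at 0.724, 0.926, 0.943 and 0.746 CPM in the Control-shRNA baseline libraries and at 1.64, 1.49, 1.44 and 1.12 CPM with bicuculline, against 1.09, 1.57, 1.08 and 1.45 CPM and 2.06, 2.30, 1.32 and 1.99 CPM in the Dnmt3a1-shRNA libraries. In Control-shRNA the groups did not overlap, and the log2 fold changes were 0.76 ± 0.21 (SE, adjusted p = 0.00693) and 0.56 ± 0.20 (SE, adjusted p = 0.0273). Estimated counts of Col6a5 did not exceed 62 in a library. Col6a3 and Col28a1 passed in Dnmt3a1-shRNA. Col6a3 stood at 1.65, 2.13, 2.92 and 2.21 CPM in the Control-shRNA baseline libraries and at 2.27, 3.62, 3.88 and 2.49 CPM with bicuculline, against 2.32, 2.62, 4.03 and 3.03 CPM and 4.79, 3.48, 5.88 and 4.25 CPM in the Dnmt3a1-shRNA libraries. The groups overlapped, and Col6a3 gave 0.46 ± 0.23 (adjusted p = 0.121) in Control-shRNA and 0.61 ± 0.22 (adjusted p = 0.0295) in Dnmt3a1-shRNA. Col28a1 stood at 0.856, 0.679, 0.882 and 1.14 CPM in the Control-shRNA baseline libraries and at 0.856, 1.14, 0.824 and 0.561 CPM with bicuculline, against 1.09, 0.883, 1.21 and 0.808 CPM and 1.504, 1.67, 1.35 and 1.40 CPM in the Dnmt3a1-shRNA libraries. In Dnmt3a1-shRNA the bicuculline libraries of Col28a1 all lay above baseline while in Control-shRNA they overlapped, with 0.57 ± 0.21 (adjusted p = 0.0359) and -0.072 ± 0.22 (adjusted p = 0.831).

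The FACITs that rose were Col20a1 and Col9a1. Col20a1 stood at 1.51, 1.30, 1.25 and 1.49 CPM in the Control-shRNA baseline libraries and at 2.98, 1.88, 2.23 and 2.39 CPM with bicuculline, against 1.37, 1.34, 0.857 and 1.31 CPM and 2.26, 1.67, 1.32 and 1.99 CPM in the Dnmt3a1-shRNA libraries. In Control-shRNA the groups did not overlap, while Dnmt3a1-shRNA bicuculline replicate 3 lay below 2 of its baseline libraries. The log2 fold changes of Col20a1 were 0.77 ± 0.20 (SE, adjusted p = 0.00397) and 0.57 ± 0.20 (SE, adjusted p = 0.0298). Col9a1 stood at 0.560, 0.864, 1.004 and 1.14 CPM in the Control-shRNA baseline libraries and at 1.30, 1.17, 1.51 and 1.12 CPM with bicuculline, against 0.949, 1.01, 0.667 and 1.21 CPM and 1.70, 1.63, 1.497 and 1.40 CPM in the Dnmt3a1-shRNA libraries. The Dnmt3a1-shRNA groups did not overlap, and Col9a1 gave 0.70 ± 0.21 (adjusted p = 0.0127) there and 0.52 ± 0.22 (adjusted p = 0.0673) in Control-shRNA. In Dnmt3a1-shRNA, the calls of Col6a5, Col6a3 and Col28a1 were each lost on leaving out any 1 of 5 libraries (highest adjusted p 0.0998, 0.116 and 0.106) and that of Col20a1 on leaving out any 1 of 3 (highest adjusted p 0.108).

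**Figure D3:**
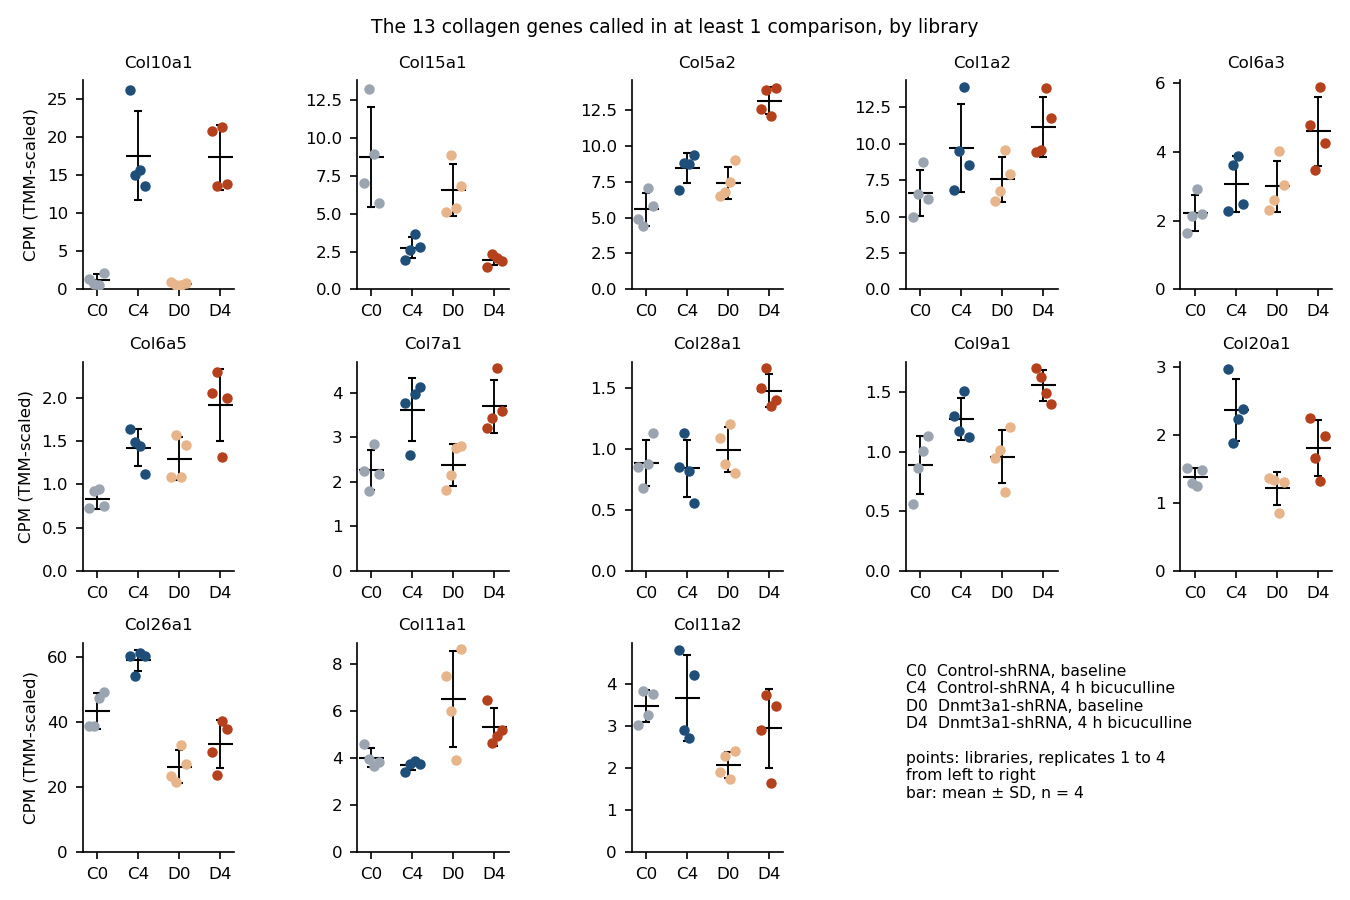
CPM of the 13 called collagens in each library, with 1 panel per gene, points for libraries and bars for mean ± SD in Control-shRNA baseline (C0) and bicuculline (C4) and Dnmt3a1-shRNA baseline (D0) and bicuculline (D4). Col10a1 and Col15a1 separate by bicuculline and Col26a1 by shRNA, while the groups of each of the other 10 overlap in at least 1 of the bicuculline comparisons.

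In Control-shRNA, libraries with the same replicate number deviated from their group means together (correlation 0.107 to 0.166 over genes), so a fit with the replicate number as a block was also made. It called 9 collagens, the 7 above and 2 more. Calls over all genes were not counted in that fit, so the 9 have no share beside them. Col1a1 stood at 6.12, 6.48, 9.77 and 6.13 CPM in the Control-shRNA baseline libraries and at 6.25, 13.2, 17.1 and 8.77 CPM with bicuculline, against 6.40, 8.63, 11.9 and 8.45 CPM and 11.1, 9.59, 18.2 and 14.2 CPM in the Dnmt3a1-shRNA libraries. The groups overlapped, and Control-shRNA baseline replicate 3 was the highest of its group. The 2 were Col1a1, the other type I chain (0.67 ± 0.28, adjusted p = 0.0613 without the block and a log2 fold change of 0.64, adjusted p = 0.00174 with it), and Col4a6, a minor type IV chain (0.56 ± 0.26, adjusted p = 0.0933 without the block and 0.57, adjusted p = 0.0207 with it). On log2(TPM + 0.1), tested with limma as an alternative chosen after seeing the data, Col10a1 rose and Col15a1 fell in both shRNAs and Col5a2 rose in Dnmt3a1-shRNA. The other rises were not called on that scale, and Col11a1 was lower in both shRNAs. Over all genes that scale gave 1243 calls higher and 3212 lower in Control-shRNA and 1546 and 3573 in Dnmt3a1-shRNA.

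Dnmt3a1-shRNA was compared with Control-shRNA at baseline and again with bicuculline to ask which collagens depend on Dnmt3a1. Col26a1 fell in both conditions, and it is also the most abundant collagen of these cultures. At baseline Col11a1, a minor fibrillar chain of cartilage, and Col6a5 rose, while Col11a2, the partner chain of Col11a1, and Col26a1 fell. With bicuculline Col28a1 and Col5a2 rose and Col26a1 fell. At baseline the 2 higher collagens are 5.0% of the 40 tested, beside 1.76% of all tested genes, and the 2 lower also 5.0%, beside 4.07%. With bicuculline the 2 higher are 5.0%, beside 2.0% of all genes, and the 1 lower 2.5%, beside 3.90%. The median log2 fold change of the 40 was 0.18 at baseline and 0.24 with bicuculline, with 27 and 28 above 0, against 0.01 and -0.01 over all genes. With library sizes as the scale the share of lower calls over all genes went from 69.8% to 85.8% at baseline and from 66.1% to 80.8% with bicuculline. On log2(TPM + 0.1) the fall of Col26a1 was the single collagen call in each of these 2 comparisons.

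Col26a1 (ENSMUSG00000004415.15, chr5:136741759-136883209 on the minus strand) encodes a secreted collagen with an EMI domain. Col26a1 stood at 38.6, 38.9, 47.4 and 49.1 CPM in the Control-shRNA baseline libraries and at 60.2, 54.1, 61.1 and 60.3 CPM with bicuculline, against 23.5, 21.5, 32.9 and 27.2 CPM and 30.8, 23.8, 40.2 and 37.8 CPM in the Dnmt3a1-shRNA libraries. All Dnmt3a1-shRNA libraries lay below all Control-shRNA libraries of the same condition. The mean was 43.5 ± 5.52 CPM in Control-shRNA and 26.3 ± 5.01 CPM in Dnmt3a1-shRNA at baseline, a log2 fold change of -0.73 ± 0.15 (SE, adjusted p = 0.00248), or 1.65-fold lower. With bicuculline it was 58.9 ± 3.23 and 33.2 ± 7.40 CPM, a log2 fold change of -0.83 ± 0.15 (SE, adjusted p = 8.04e-04), or 1.77-fold lower. Both calls were made in every alternative tried, each of the 16 left-out libraries included. The bicuculline comparisons of Col26a1 gave 0.44 ± 0.14 (adjusted p = 0.0211) in Control-shRNA, where the groups did not overlap but the fold threshold was missed, and 0.34 ± 0.15 (adjusted p = 0.0734) in Dnmt3a1-shRNA. Markers of GABAergic neurons also lay lower with the knockdown. At baseline all 6 had a log2 fold change below 0, with a median of -0.21, and Sst, the somatostatin gene, was the 1 called lower (-0.52 ± 0.13, adjusted p = 0.00921). Their summed TPM ran from 2377 to 2770 in Control-shRNA and from 1599 to 2192 in Dnmt3a1-shRNA, with no overlap. With bicuculline 5 of the 6 lay below 0, with a median of -0.14 and none called, and the sums ran from 2896 to 4007 and from 2511 to 3146 TPM, which overlapped. The sums of 5 excitatory neuron markers overlapped, at 1331 to 1515 TPM in Control-shRNA and 1117 to 1399 TPM in Dnmt3a1-shRNA at baseline. With bicuculline they ran from 1159 to 1392 and from 1006 to 1326 TPM. On counts 3 of these 5 lay above 0 and 2 below in each condition, with medians of 0.23 and 0.24 and none called. The part of either marker set in the Col26a1 difference was not tested.

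Col11a1 and Col11a2 encode 2 chains of the same type XI fibrils. Col11a1 stood at 4.61, 3.95, 3.68 and 3.83 CPM in the Control-shRNA baseline libraries and at 3.42, 3.73, 3.88 and 3.75 CPM with bicuculline, against 7.49, 6.02, 3.91 and 8.62 CPM and 6.45, 4.63, 4.92 and 5.21 CPM in the Dnmt3a1-shRNA libraries. At baseline Dnmt3a1-shRNA replicate 3 fell within the Control-shRNA range, and the log2 fold change was 0.69 ± 0.18 (SE, adjusted p = 0.0138), against 0.52 ± 0.19 (SE, adjusted p = 0.0650) with bicuculline. Without Dnmt3a1-shRNA baseline replicate 4, the highest library, the baseline call was lost (adjusted p = 0.0611). Col11a2 stood at 3.03, 3.83, 3.26 and 3.76 CPM in the Control-shRNA baseline libraries and at 4.80, 2.91, 2.71 and 4.21 CPM with bicuculline, against 1.90, 2.29, 1.75 and 2.39 CPM and 2.89, 3.74, 1.64 and 3.47 CPM in the Dnmt3a1-shRNA libraries. At baseline all Dnmt3a1-shRNA libraries lay below Control-shRNA, and Col11a2 gave -0.74 ± 0.23 (SE, adjusted p = 0.0344), against -0.32 ± 0.22 (SE, adjusted p = 0.362) with bicuculline. The Col11a2 call was lost on leaving out any 1 of 5 libraries, all from the 2 baseline groups (adjusted p = 0.0551 to 0.0865).

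Of the other knockdown calls, Col6a5 gave 0.63 ± 0.21 (adjusted p = 0.0487) at baseline, where all Dnmt3a1-shRNA libraries lay above Control-shRNA, and 0.43 ± 0.20 (adjusted p = 0.148) with bicuculline. Its baseline call was lost on leaving out any 1 of 12 libraries (adjusted p = 0.0525 to 0.129). Col28a1 gave 0.81 ± 0.22 (adjusted p = 0.0155) with bicuculline, with no overlap between the groups, and 0.17 ± 0.22 (adjusted p = 0.665) at baseline. Col5a2 gave 0.63 ± 0.14 (adjusted p = 0.00390) with bicuculline, again with no overlap, and 0.42 ± 0.14 (adjusted p = 0.0532) at baseline. Col10a1 gave -0.72 ± 0.43 (adjusted p = 0.288) at baseline and -0.017 ± 0.26 (adjusted p = 0.974) with bicuculline, and Col15a1 gave -0.42 ± 0.23 (adjusted p = 0.258) and -0.50 ± 0.28 (adjusted p = 0.241). The groups overlapped in these 4 comparisons. The bicuculline and knockdown comparisons share their libraries in pairs, so their calls are not independent of each other.

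The remaining 12 tested collagens, outside the calls, the abundant genes and the fibroblast-type and neuronal lists, were Col2a1, Col5a3 and Col27a1 among the fibrillar chains, Col4a4, Col4a5 and Col4a6 of type IV, Col6a4 and Col6a6 of type VI, the FACITs Col9a3 and Col22a1, and the membrane-spanning Col13a1 and Col17a1. Their mean levels ran from 0.0606 TPM for Col6a6 to 3.91 TPM for Col22a1. With bicuculline their log2 fold changes ran from -0.56 for Col17a1 to 0.56 for Col4a6 in Control-shRNA, and from -1.04 for Col6a6 to 0.63 for Col27a1 in Dnmt3a1-shRNA. With the knockdown they ran from -0.55 for Col17a1 to 0.72 for Col6a6 at baseline, and from -0.58 for Col17a1 to 0.51 for Col4a5 with bicuculline. None of these passed the test.

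Whether the response to bicuculline differed between the shRNAs was tested as the interaction in the same fit. No collagen was called, beside 0.00% of all 17222 genes by edgeR, 0 genes by voom with limma, and 17 genes but 0 collagens by DESeq2. At an unadjusted p under 0.05 there were 852 genes (4.95%) and 0 collagens. Col10a1, with log2 fold changes of 3.86 and 4.56 in Control-shRNA and Dnmt3a1-shRNA, had a difference of 0.70 ± 0.50 (SE) with a 95% confidence interval of -0.38 to 1.78. Col28a1, called in Dnmt3a1-shRNA and not in Control-shRNA, had a difference of 0.64 ± 0.31 (SE) with an interval of -0.032 to 1.31. The collagens called in 1 shRNA are therefore not shown to differ between the shRNAs, and the intervals are wide enough to hold sizeable differences.

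The 13 fibroblast-type collagens are Col1a1, Col1a2, Col3a1, Col5a1, Col5a2, Col6a1, Col6a2, Col6a3, Col8a1, Col12a1, Col14a1, Col15a1 and Col16a1, and together they made up 25.5% of the collagen TPM. With bicuculline 2 rose and 1 fell in Control-shRNA, or 15.4% higher beside 10.8% of all genes and 7.69% lower beside 11.1%. In Dnmt3a1-shRNA 3 rose and 1 fell, or 23.1% beside 12.6% and 7.69% beside 13.2%. With the knockdown none was called at baseline and 1 rose with bicuculline, or 7.69% beside 2.0%. Their median log2 fold changes were 0.35, 0.31, 0.21 and 0.27 for bicuculline in Control-shRNA, bicuculline in Dnmt3a1-shRNA, the knockdown at baseline and the knockdown with bicuculline.

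For the 10 members whose 4 comparisons have not all been given, the values follow. Col1a1 gave 0.67 ± 0.28 (adjusted p = 0.0613) with bicuculline in Control-shRNA, 0.58 ± 0.27 (adjusted p = 0.0912) with bicuculline in Dnmt3a1-shRNA, 0.31 ± 0.28 (adjusted p = 0.502) for Dnmt3a1-shRNA at baseline and 0.23 ± 0.27 (adjusted p = 0.618) for Dnmt3a1-shRNA with bicuculline. Col3a1 gave 0.30 ± 0.18 (adjusted p = 0.201) with bicuculline in Control-shRNA, 0.29 ± 0.18 (adjusted p = 0.202) with bicuculline in Dnmt3a1-shRNA, 0.31 ± 0.18 (adjusted p = 0.276) for Dnmt3a1-shRNA at baseline and 0.29 ± 0.18 (adjusted p = 0.274) for Dnmt3a1-shRNA with bicuculline. Col5a1, the main type V chain, gave 0.25 ± 0.22 (adjusted p = 0.395) with bicuculline in Control-shRNA, 0.20 ± 0.22 (adjusted p = 0.504) with bicuculline in Dnmt3a1-shRNA, -0.067 ± 0.22 (adjusted p = 0.876) for Dnmt3a1-shRNA at baseline and -0.12 ± 0.22 (adjusted p = 0.756) for Dnmt3a1-shRNA with bicuculline. For Col12a1 the values were 0.050 ± 0.15 (adjusted p = 0.822) with bicuculline in Control-shRNA, 0.28 ± 0.15 (adjusted p = 0.129) with bicuculline in Dnmt3a1-shRNA, 0.21 ± 0.15 (adjusted p = 0.384) for Dnmt3a1-shRNA at baseline and 0.44 ± 0.15 (adjusted p = 0.0477) for Dnmt3a1-shRNA with bicuculline, of which the last had no overlap between groups but missed the fold threshold. For Col14a1, a FACIT of fibril surfaces, they were 0.043 ± 0.23 (adjusted p = 0.903) with bicuculline in Control-shRNA, 0.27 ± 0.23 (adjusted p = 0.360) with bicuculline in Dnmt3a1-shRNA, 0.13 ± 0.23 (adjusted p = 0.766) for Dnmt3a1-shRNA at baseline and 0.35 ± 0.23 (adjusted p = 0.319) for Dnmt3a1-shRNA with bicuculline.

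The FACIT Col16a1 gave 0.32 ± 0.21 (adjusted p = 0.236) with bicuculline in Control-shRNA, 0.37 ± 0.21 (adjusted p = 0.156) with bicuculline in Dnmt3a1-shRNA, 0.23 ± 0.21 (adjusted p = 0.521) for Dnmt3a1-shRNA at baseline and 0.27 ± 0.21 (adjusted p = 0.396) for Dnmt3a1-shRNA with bicuculline. Among type VI chains, Col6a1 gave 0.35 ± 0.44 (adjusted p = 0.572) with bicuculline in Control-shRNA, 0.31 ± 0.46 (adjusted p = 0.622) with bicuculline in Dnmt3a1-shRNA, -0.39 ± 0.45 (adjusted p = 0.622) for Dnmt3a1-shRNA at baseline and -0.43 ± 0.45 (adjusted p = 0.553) for Dnmt3a1-shRNA with bicuculline. Col6a2, its partner chain, gave 0.36 ± 0.23 (adjusted p = 0.234) with bicuculline in Control-shRNA, 0.034 ± 0.24 (adjusted p = 0.926) with bicuculline in Dnmt3a1-shRNA, -0.27 ± 0.24 (adjusted p = 0.498) for Dnmt3a1-shRNA at baseline and -0.60 ± 0.24 (adjusted p = 0.0927) for Dnmt3a1-shRNA with bicuculline. Col6a3 with the knockdown gave 0.43 ± 0.23 (adjusted p = 0.226) at baseline and 0.58 ± 0.22 (adjusted p = 0.0776) with bicuculline, and Col1a2 gave 0.19 ± 0.21 (adjusted p = 0.603) and 0.20 ± 0.21 (adjusted p = 0.550). All of these values are from the fit without the replicate block. Col3a1 and Col6a1 had a lowest adjusted p under 0.05 over the alternatives tried in every comparison. Neither was called there, as the fold threshold was missed.

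The summed TPM of the fibroblast-type collagens moved with the replicate number more than with the group. It was 36.7, 44.5, 59.3 and 36.4 in Control-shRNA baseline replicates 1 to 4 and 33.9, 46.3, 60.96 and 44.8 with bicuculline. In Dnmt3a1-shRNA it was 34.3, 42.3, 60.1 and 46.3 at baseline and 39.98, 43.2, 58.4 and 45.8 with bicuculline. Replicate 3 was the highest in all 4 groups, while the group means lay between 44.2 and 46.9 TPM. This was not particular to the fibroblast-type genes. The sum of all collagens and that of the 6 neuronal markers were also highest in replicate 3 in each group. For the neuronal markers those sums were 5372, 4850, 5594 and 4972 TPM, with the groups in the same order. Of the 13 genes, 9, 8, 7 and 7 had their highest CPM in replicate 3 in Control-shRNA baseline, Control-shRNA bicuculline, Dnmt3a1-shRNA baseline and Dnmt3a1-shRNA bicuculline. The 12 fibroblast markers, a list without collagens, summed to 46.6, 66.2, 80.3 and 63.03 TPM in Control-shRNA baseline, 43.3, 73.5, 85.6 and 65.6 in Control-shRNA bicuculline, 51.5, 71.5, 88.97 and 71.1 in Dnmt3a1-shRNA baseline and 52.2, 69.7, 87.03 and 71.6 in Dnmt3a1-shRNA bicuculline, with replicate 1 the lowest and replicate 3 the highest in each group. By comparison 1 of the 12 markers, or 8.33%, was called higher and 0 lower in each of the 4, beside 10.8%, 12.6%, 1.76% and 2.0% of all genes called higher, with median log2 fold changes of 0.33, 0.25, 0.15 and 0.17. The replicate block added Fbln2, a matrix glycoprotein, with bicuculline in Control-shRNA (0.69 for Fbln2, adjusted p = 0.00320). Of 6 astrocyte markers none was called without the replicate block, but all 6 lay above 0 in every comparison, with medians of 0.32, 0.32, 0.40 and 0.42 and sums of 172.6 to 320.8, 145.2 to 321.4, 193.8 to 419.5 and 234.3 to 409.8 TPM in the 4 groups in the same order as above. With the replicate block 2 of the 6 astrocyte markers, Gfap and Gja1, were called higher with the knockdown at baseline (0.60 for Gfap, adjusted p = 8.74e-04, and 0.64 for Gja1, adjusted p = 8.61e-05), where the numbers were taken to pair the libraries, and the same 2 with bicuculline. These 2 have no share beside them, as calls over all genes were not counted with the block. The part of the cell makeup in the collagen differences was not tested.

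**Figure D4:**
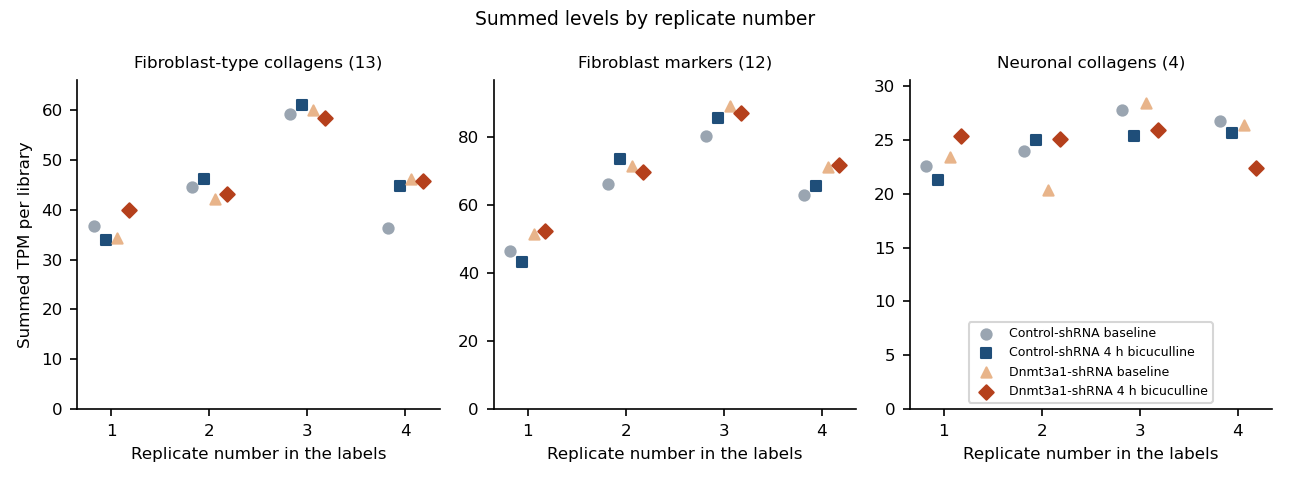
Summed TPM of the 13 fibroblast-type collagens, the 12 fibroblast markers and the 4 neuronal collagens by replicate number, with 1 symbol per group. Replicate 3 is the highest for the fibroblast-type collagens and the fibroblast markers in all 4 groups. It is also the highest for the neuronal collagens except in Control-shRNA with bicuculline, and these lie between 20.3 and 28.4 TPM.

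The 4 neuronal collagens are Col25a1, Col19a1, Col23a1 and Col24a1, and they made up 13.8% of the collagen TPM. None was called in any of the 4 comparisons. Their summed TPM was 25.3 ± 2.41 in Control-shRNA at baseline and 24.3 ± 2.08 with bicuculline, and 24.7 ± 3.55 and 24.7 ± 1.56 in Dnmt3a1-shRNA (SD, n = 4). Col25a1, the membrane-spanning collagen whose shed part is found in amyloid plaques, carried most of it. Col25a1 stood at 41.2, 38.7, 36.4 and 43.5 CPM in the Control-shRNA baseline libraries and at 43.2, 38.9, 38.8 and 47.1 CPM with bicuculline, against 43.01, 36.98, 41.7 and 45.5 CPM and 53.3, 45.5, 42.5 and 46.8 CPM in the Dnmt3a1-shRNA libraries. The groups overlapped in every comparison, and Col25a1 gave 0.072 ± 0.087 (adjusted p = 0.547) with bicuculline in Control-shRNA, 0.17 ± 0.086 (adjusted p = 0.120) with bicuculline in Dnmt3a1-shRNA, 0.065 ± 0.086 (adjusted p = 0.675) for Dnmt3a1-shRNA at baseline and 0.16 ± 0.087 (adjusted p = 0.212) for Dnmt3a1-shRNA with bicuculline. Col19a1, a FACIT made by interneurons, gave 0.26 ± 0.13 (adjusted p = 0.128) with bicuculline in Control-shRNA, 0.48 ± 0.13 (adjusted p = 0.00596) with bicuculline in Dnmt3a1-shRNA, -0.20 ± 0.13 (adjusted p = 0.359) for Dnmt3a1-shRNA at baseline and 0.027 ± 0.13 (adjusted p = 0.914) for Dnmt3a1-shRNA with bicuculline. The value with bicuculline in Dnmt3a1-shRNA was under the fold threshold. Col23a1, another membrane-spanning collagen, gave 0.31 ± 0.17 (adjusted p = 0.152) with bicuculline in Control-shRNA, 0.27 ± 0.17 (adjusted p = 0.194) with bicuculline in Dnmt3a1-shRNA, 0.26 ± 0.17 (adjusted p = 0.336) for Dnmt3a1-shRNA at baseline and 0.22 ± 0.17 (adjusted p = 0.395) for Dnmt3a1-shRNA with bicuculline. The 6 markers of GABAergic neurons moved with bicuculline, with 4 of 6 (66.7%) called higher in each shRNA, beside 10.8% and 12.6% of all genes, and medians of 0.59 and 0.70. With the knockdown these markers lay lower at baseline, as given beside Col26a1. Their part in the neuronal collagen values was not tested. Col24a1 was not tested, with 0 to 0.157 TPM over the 16 libraries.

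Beyond the collagens themselves, genes that fold, process, bind and degrade collagen were followed in lists. Of 22 enzymes and chaperones of collagen folding and modification, all tested, 1 rose and 1 fell with bicuculline in Control-shRNA, or 4.55% each way, under the 10.8% and 11.1% of all genes. In Dnmt3a1-shRNA 5 rose, or 22.7% beside 12.6%, and none fell, beside 13.2%. Tmem38b, an endoplasmic reticulum cation channel needed for collagen assembly, rose in both shRNAs (0.54 ± 0.13, adjusted p = 0.00237, and 0.66 ± 0.13, adjusted p = 4.25e-04). P4ha2, a prolyl 4-hydroxylase subunit, fell in Control-shRNA (-0.56 ± 0.16, adjusted p = 0.00956). Plod2, a lysyl hydroxylase of collagen ends, rose from 5.59 to 10.7 CPM in Dnmt3a1-shRNA (0.94 ± 0.14, adjusted p = 2.78e-05), and Mia2, which helps load collagen for export, gave 0.58 ± 0.061 (adjusted p = 5.52e-07). With the knockdown, P3h4, a partner of lysyl hydroxylase, fell at baseline (-0.55 ± 0.12, adjusted p = 0.00438) and with bicuculline (-0.54 ± 0.12, adjusted p = 0.00515), and Colgalt2, a collagen galactosyltransferase, rose at baseline (0.71 ± 0.20, adjusted p = 0.0208). These 3 were the list's knockdown calls, 1 higher and 1 lower at baseline and 1 lower with bicuculline, each 4.55% of the list, beside 1.76%, 4.07% and 3.90% of all genes. The list's medians were 0.29, 0.20, -0.010 and 0.078.

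Of 14 genes of procollagen processing and cross-linking, 13 were tested (Loxl4 was not). With bicuculline 4 rose and 1 fell in each shRNA. The 4 are 30.8% of the 13, beside 10.8% and 12.6% of all genes, and the 1 is 7.69%, under the 11.1% and 13.2% of all genes. Tll1, a tolloid-like protease that trims the procollagen end, rose from 6.26 to 23.01 CPM in Control-shRNA (1.88 ± 0.30, adjusted p = 6.18e-05) and from 3.01 to 22.2 CPM in Dnmt3a1-shRNA (2.88 ± 0.32, adjusted p = 9.94e-07). Pcolce2, an enhancer of that cleavage, gave 0.82 ± 0.16 (adjusted p = 5.73e-04) and 1.66 ± 0.16 (adjusted p = 2.41e-07). Loxl2, a cross-linking oxidase, rose in Control-shRNA (0.60 ± 0.19, adjusted p = 0.0180) and its relative Loxl1 in Dnmt3a1-shRNA (0.74 ± 0.25, adjusted p = 0.0233). Adamts2, which removes the other procollagen end, fell in both (-1.12 ± 0.21, adjusted p = 2.84e-04, and -1.24 ± 0.20, adjusted p = 6.18e-05). With the knockdown Tll1 fell at baseline (-1.05 ± 0.33, adjusted p = 0.0367) and Pcolce2 rose with bicuculline (0.56 ± 0.15, adjusted p = 0.0178), the single calls of those comparisons, each 7.69% of the list, beside 4.07% of all genes lower at baseline and 2.0% higher with bicuculline. The medians were 0.29, 0.36, -0.060 and 0.20.

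Of 12 collagen receptors, all tested, 2 rose with bicuculline in Control-shRNA and 4 in Dnmt3a1-shRNA, none fell, and the knockdown gave 0 calls at baseline and 1 higher with bicuculline. Those called higher are 16.7% and 33.3% of the list with bicuculline, beside 10.8% and 12.6% of all genes, and 8.33% with the knockdown under bicuculline, beside 2.0%. Mrc2, an uptake receptor for collagen, rose in both shRNAs (0.85 ± 0.18, adjusted p = 0.00104, and 0.56 ± 0.18, adjusted p = 0.0164). Adgrg1, a receptor for type III collagen, rose from 70.2 to 113.4 CPM in Control-shRNA (0.69 ± 0.076, adjusted p = 1.23e-06). In Dnmt3a1-shRNA the integrin chains Itga2 (0.80 ± 0.28, adjusted p = 0.0254) and Itgb1 (0.61 ± 0.065, adjusted p = 5.59e-07) rose. Adgrg6, a receptor for type IV collagen, was the one higher with the knockdown (0.76 ± 0.21, adjusted p = 0.0208). The medians were 0.16, 0.31, 0.17 and 0.16.

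Of 12 genes of collagen degradation, proteases and their inhibitors, 11 were tested (Mmp8 was not). With bicuculline 3 rose in Control-shRNA and 4 in Dnmt3a1-shRNA, with the knockdown 3 rose at baseline and 1 with bicuculline, and none fell. These are 27.3%, 36.4%, 27.3% and 9.09% of the 11, beside 10.8%, 12.6%, 1.76% and 2.0% of all genes. Timp1, an inhibitor of matrix proteases, rose with bicuculline (1.45 ± 0.23, adjusted p = 6.83e-05, and 0.79 ± 0.22, adjusted p = 0.00635), as did the collagenase Mmp13 (0.86 ± 0.32, adjusted p = 0.0392, and 1.10 ± 0.29, adjusted p = 0.00426) and the inhibitor Timp4 (0.78 ± 0.21, adjusted p = 0.00585, and 0.90 ± 0.20, adjusted p = 0.00126). Timp2, the most abundant of them named here, rose with the knockdown from 694.8 to 1087 CPM at baseline (0.65 ± 0.064, adjusted p = 2.30e-06) and from 811.8 to 1274 CPM with bicuculline (0.65 ± 0.064, adjusted p = 2.04e-06). At baseline Timp1 (0.75 ± 0.24, adjusted p = 0.0418) and the membrane protease Mmp15 (0.52 ± 0.067, adjusted p = 4.24e-05) rose as well. The medians were 0.32, 0.33, 0.33 and 0.34. Of 11 partner matrix proteins, Tgfbi, which binds collagen and integrins, rose with bicuculline in both shRNAs (1.09 ± 0.25, adjusted p = 0.00168, and 1.14 ± 0.25, adjusted p = 0.00121), and Lum, a fibril-binding proteoglycan, rose with the knockdown under bicuculline (0.67 ± 0.21, adjusted p = 0.0334). No other partner was called in any of the 4 comparisons, so that each call is 9.09% of the list, beside 10.8%, 12.6% and 2.0% of all genes called higher. The replicate block added Bgn, a small proteoglycan, with bicuculline in Control-shRNA (0.51 for Bgn, adjusted p = 0.00898).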

How the data were processed

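RNA of the 16 libraries was sequenced on a BGISEQ-500. Per the submitters' processing notes the authors trimmed reads with Trim Galore 0.6.4 and quantified transcripts with kallisto 0.4.6 on GRCm38.p6. The study's methods give a different version number for kallisto. The deposited values are the authors' estimated counts and TPM per gene, 1 table each per library. TPM divides by transcript length, so it can move with isoform use where counts do not.

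Here counts were rounded before testing. Gene names came from GENCODE M21 (55144 of 55385 identifiers matched). Genes were filtered with filterByExpr, scaled with TMM and tested with edgeR 4.0.16 (quasi-likelihood, 1 mean per group, 16 libraries) in R 4.3.3, with Benjamini-Hochberg adjustment over all tested genes. CPM uses TMM library sizes. DESeq2 1.42.0, voom with limma 3.58.1, other scalings and filters, only the groups compared, a replicate block, each library left out and log2(TPM + 0.1) were tried. The edgeR steps were tested on simulated data. The members and all lists (classes, fibroblast-type, neuronal, pathways, cell markers) were chosen with earlier results of these data known. Full values are given for called collagens, the 8 of highest mean TPM and both named lists, and up to 3 called genes per direction for each pathway list. Promoters are from RefSeq tables.

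Replicate libraries of a group differed by more than counting error (chi-square divided by its degrees of freedom 7.14 to 39.8), so none was merged. The numbers were taken to pair the samples where every same-numbered correlation of deviations was over 0.1. This held for bicuculline in Control-shRNA (0.107 to 0.166) and for the knockdown at baseline (0.168 to 0.307). Sequencing depth was within a narrow range, and the standard errors hold both each gene's counting error and its spread between libraries.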

Additional observations from a re-analysis of the deposited data

Results flagged for a closer look

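In 5 of 112 groups of 4 libraries, over the 28 collagens described with values or tests, 1 library stood apart from the other 3. Chance flags about 1 in 20 groups. Col10a1 in Control-shRNA with bicuculline had 26.2 CPM in replicate 1, with the others between 13.5 and 15.7 CPM. Col26a1 in the same group had 54.1 CPM in replicate 2, with the others between 60.2 and 61.1 CPM. Col20a1 in Dnmt3a1-shRNA at baseline had 0.857 CPM in replicate 3, with the others between 1.31 and 1.37 CPM. In Control-shRNA at baseline, replicate 3 was high for Col1a1 (9.77 CPM, next 6.48 CPM) and for Col6a2 (3.95 CPM, next 2.27 CPM). The summed fibroblast-type collagens and fibroblast markers were highest in replicate 3 of that group and of the other groups, Control-shRNA with bicuculline included. Without that library, Col1a1 and Col6a2 were called higher with bicuculline in Control-shRNA (0.86 and 0.62 on the log2 scale, adjusted p = 0.0287 and 0.0384 by edgeR). That fit drops the highest baseline library and keeps bicuculline replicate 3. A larger rise follows from that choice, so these 2 calls are no added evidence of a rise.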

How the results depend on the processing

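The counts of called collagens depended on the scaling and the test. With library sizes only, the main counts of 7 and 10 with bicuculline in Control-shRNA and Dnmt3a1-shRNA both became 4. Calls over all genes rose there, from 3765 to 4397 and from 4436 to 5107. With limma on log2(TPM + 0.1), chosen after seeing the data, the counts became 3 and 4 with bicuculline and 1 and 1 with the knockdown at baseline and with bicuculline, where the main counts were 4 and 3. For the knockdown with bicuculline the count of 3 became 5 with DESeq2 and 5 with no fold threshold. Calls over all genes were not counted in these settings, so those counts have no share beside them. Apart from the block and the left-out libraries below, the other settings left these counts within 1.5 times the main ones, and the interaction stayed at 0. Of 24 calls of a gene in a comparison, 7 were made in every alternative: Col10a1 and Col15a1 with bicuculline in both shRNAs, Col5a2 with bicuculline in Dnmt3a1-shRNA, and Col26a1 with the knockdown in both conditions. The cause of the other changes was not tested.

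The replicate block raised the count to 7 for the knockdown with bicuculline, adding Col4a5, Col11a1 and Col6a3 higher and Col6a2 lower, and to 12 for bicuculline in Dnmt3a1-shRNA, adding Col1a1 and Col27a1. In these 2 comparisons not every correlation between same-numbered libraries was over 0.1 (0.0268 to 0.329 and 0.0566 to 0.279). By this rule the libraries were not taken as paired there. All of these correlations were positive, and the fibroblast markers and Col6a1 kept replicate 1 lowest and replicate 3 highest in all 4 groups. The rule therefore does not show that the libraries are unpaired. In the other 2, the block changed no collagen call for the knockdown at baseline and gave 9 calls for bicuculline in Control-shRNA. Calls over all genes were not counted with the block, so none of its collagen counts has a share beside it.

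Leaving out each library in turn gave 6 to 9 calls and 7 to 10 calls with bicuculline in Control-shRNA and Dnmt3a1-shRNA, 2 to 4 with the knockdown at baseline, 3 to 5 with the knockdown under bicuculline, and 0 for the interaction. The baseline knockdown count was 2 without Control-shRNA replicate 2, Control-shRNA replicate 4 or Dnmt3a1-shRNA replicate 4. The count with bicuculline was 5 without Control-shRNA bicuculline replicate 1. Over all genes, calls were not counted with a library left out.

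Signs turned for uncalled collagens, some of them near 0 on the log2 scale in the main fit. Others, such as Col3a1, Col23a1 and Col8a1 with bicuculline in Dnmt3a1-shRNA, lay further from 0 there. With library sizes only, bicuculline in Control-shRNA gave -0.085 for Col25a1, -0.11 for Col12a1 and -0.11 for Col14a1, bicuculline in Dnmt3a1-shRNA -0.11 for Col6a2, and the knockdown -0.015 for Col25a1 at baseline and -0.047 for Col19a1 with bicuculline. On log2(TPM + 0.1) Col25a1 gave -0.13, -0.024 and -0.057 in the first 3 comparisons, Col3a1, Col23a1 and Col6a2 gave -0.049, -0.24 and -0.14 with bicuculline in Dnmt3a1-shRNA, and the knockdown gave -0.074 for Col16a1 at baseline and -0.073 for Col19a1 with bicuculline. With 1 library left out, the ranges that crossed 0 were -0.043 to 0.17 for Col12a1 and -0.10 to 0.14 for Col14a1 with bicuculline in Control-shRNA, -0.099 to 0.13 for Col6a2, -0.031 to 0.68 for Col6a1 and -0.010 to 0.65 for Col8a1 with bicuculline in Dnmt3a1-shRNA, -0.17 to 0.063 for Col5a1 with the knockdown at baseline, and -0.30 to 0.035 for Col5a1 and -0.039 to 0.11 for Col19a1 with the knockdown under bicuculline. Depth limits the low collagens: in genes with few counts per library small differences were not detectable.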

Other observations

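Col11a1 differed between the 2 deposited units. On log2(TPM + 0.1), tested with limma, it was lower with bicuculline in Control-shRNA, -0.74 (adjusted p = 0.00998), and in Dnmt3a1-shRNA, -0.55 (adjusted p = 0.0451), while on counts edgeR gave -0.12 ± 0.19 (adjusted p = 0.656) and -0.29 ± 0.18 (adjusted p = 0.199). Mean TPM was 2.22 at baseline and 1.30 with bicuculline in Control-shRNA, and 2.86 and 1.94 in Dnmt3a1-shRNA. Mean CPM was 4.02, 3.70, 6.51 and 5.30 in the same order. Over all tested genes the median on the TPM scale was -0.19 in Control-shRNA and -0.18 in Dnmt3a1-shRNA. Isoform use was not tested, since the tables hold 1 value per gene.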
